A study of Homo sapiens with 9 samples.

Results

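Tropomyosin 1 (TPM1), calponin 2 (CNN2), vinculin (VCL), caldesmon 1 (CALD1), zyxin (ZYX) and leupaxin (LPXN) are 6 genes of actin filaments and focal adhesions, and they were followed here across 3 culture conditions of A549 cells. They are 6 of the 10916 genes tested, and 8 probe sets carry their symbols in the platform annotation. The genes were selected on their log2 intensities across the 3 conditions, so their differences between conditions are given as a description. Calls of the fit for these genes are counted below, but because of this selection they are not a test of them. A549 cells are a long-established human line derived from lung cancer that spreads on ordinary culture plastic.

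All cells were kept for 5 days in DMEM with 10% FBS. The group labelled Low attachment+FP001 was grown on low-attachment plates with 0.015% (w/v) FP001, an additive known here only by that label. The group labelled Low attachment was grown on the same kind of plate in normal medium, with Milli-Q water in place of FP001. Cells labelled Attachment were grown on ordinary plates in normal medium. RNA of each sample was read on 1 expression array, with 3 arrays per condition. Attachment replicate 1 was left out of all values below, because it followed none of the others (highest rank correlation −0.00191). The other 8 arrays had median intensities from 23.3 to 24.1. Nothing says that replicates came from separate cultures, so the errors and p-values cover only differences among these samples, possibly technical ones, and the small number of arrays limits every value.

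As background, cells attached to a stiff surface pull on it through bundles of actin filaments that end in focal adhesions, where integrins link the filaments to the outside. Tropomyosin, caldesmon and calponin lie along the filaments and regulate how myosin binds to them. Vinculin couples filaments to the adhesion, and zyxin and leupaxin are adaptor proteins of the adhesion that carry LIM domains, a zinc-binding protein fold. Many genes of this system are known targets of the transcription factor SRF and its actin-sensing cofactors of the MRTF family, which bind DNA at a sequence called the CArG box.

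The 3 genes whose proteins lie along the filament were lower on low-attachment plates, with or without FP001. TPM1, whose tropomyosin winds along the filament, read 92.4, 77.7 and 87.8 on the 3 FP001 arrays and 103.6, 78.8 and 80.9 on the 3 low-attachment arrays in normal medium, against 154.5 and 142.7 on attachment replicates 2 and 3. All 6 low-attachment arrays lay below both attachment arrays, and replicate 1 read highest in each low-attachment group. The mean log2 intensity of TPM1 was 6.42 ± 0.13 with FP001 and 6.44 ± 0.22 on low attachment alone (SD, n = 3 each), against 7.21 ± 0.08 on attachment (SD, n = 2). This was a log2 difference from attachment of −0.79 ± 0.13 with FP001, or 1.73-fold lower, and of −0.77 ± 0.13 without it, or 1.70-fold lower (± SE, from limma).

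CNN2, a calponin that binds filaments in non-muscle cells too, read 487.6, 536.1 and 504.1 with FP001 and 495.0, 551.4 and 556.3 on low attachment alone, against 845.6 and 862.5 on attachment. Its arrays stood close together within each condition, with an SD of 0.07, 0.09 and 0.02 on the log2 scale in the FP001, low-attachment and attachment groups. The log2 difference from attachment was −0.75 ± 0.08 with FP001 and −0.68 ± 0.08 without it. CALD1, which links actin to myosin and tropomyosin, read 61.9, 69.7 and 69.2 with FP001 and 62.0, 69.0 and 65.8 on low attachment alone, against 94.7 and 91.8 on attachment. No low-attachment array of CALD1 or CNN2 reached an attachment array. For CALD1 the log2 difference was −0.48 ± 0.10 with FP001 and −0.51 ± 0.10 without it, which is 1.39-fold and 1.42-fold lower.

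VCL, the filament anchor of the adhesion, read 801.8, 830.9 and 773.2 with FP001 and 733.7, 786.7 and 631.2 on low attachment alone, against 1058.6 and 1172.8 on attachment. Again the low-attachment arrays all lay below both attachment arrays, and low-attachment replicate 3 in normal medium read lowest of all. Its log2 difference from attachment was −0.48 ± 0.10 with FP001, a 1.39-fold lower level, and −0.64 ± 0.10 without it, 1.56-fold lower.

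Both LIM-domain adaptors were lower as well, and they differed in where their spread lay. ZYX, which gathers at strained filaments and adhesions, read 105.7, 122.0 and 135.6 with FP001 and 112.3, 123.1 and 143.4 on low attachment alone, against 184.3 and 180.5 on attachment. Its spread lay among the low-attachment arrays, where replicate 1 read lowest in each group (SD of log2 intensity 0.18 with FP001 and 0.18 without it, n = 3 each, against 0.02 on attachment, n = 2). The log2 difference from attachment was −0.60 ± 0.13 with FP001 and −0.54 ± 0.13 without it.

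LPXN, a relative of paxillin known mostly from blood cells, read 48.0, 46.6 and 39.8 with FP001 and 52.3, 47.9 and 51.3 on low attachment alone, against 84.7 and 59.1 on attachment. The attachment arrays stood far apart (SD of log2 intensity 0.37, n = 2), and the lower of them was still above all 6 low-attachment arrays. The log2 difference was −0.66 ± 0.15 with FP001 and −0.49 ± 0.15 without it. Attachment replicate 2 set much of it, because without that array the differences were −0.40 and −0.23. Without attachment replicate 3 they were −0.92 and −0.75.

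**Figure D1:**
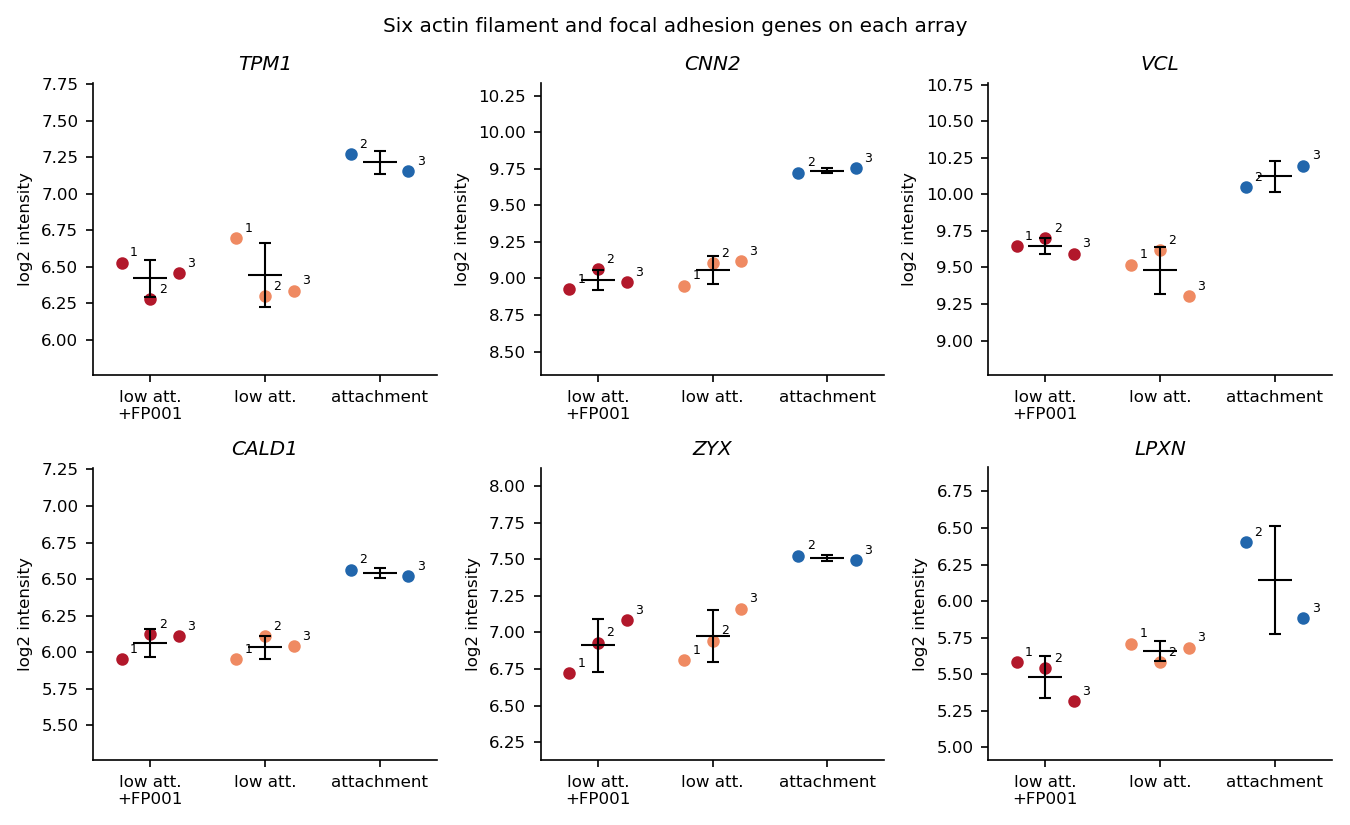
Log2 intensity (vertical axis) of each of the 6 genes on each array, by condition (horizontal axis), for the probe set that stands for the gene. Points are arrays with their replicate number, the horizontal bar is the group mean and the whiskers are ± 1 SD (n = 3, 3 and 2). All low-attachment points lie below both attachment points in each panel. The vertical axes cover equal log2 ranges and do not start at 0.

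Counted over the 6 genes, no overlap with attachment was seen for 6 genes with FP001, where 26.2% of the 10916 genes tested were lower and 26.5% higher without overlap, and for 6 genes without FP001, where 23.4% were lower and 22.2% higher. At an adjusted p under 0.05 (limma, Benjamini-Hochberg over all genes tested) the fit called 6 of 6 lower with FP001, against 11.4% of all genes (19.5% in either direction), and 5 of 6 lower on low attachment alone, against 5.76% (10.1% in either direction). LPXN was the gene not called there, and it was called without attachment replicate 3. With FP001, the calls of CALD1 and LPXN were lost without attachment replicate 2, that of VCL without replicate 3, and that of ZYX without either. On low attachment alone, TPM1 was lost without attachment replicate 2, CALD1 without either attachment array, and ZYX without either attachment array or without low-attachment replicate 1 or 2. These counts follow from how the genes were picked, and nothing is read from them. Ranked over all 10916 genes from the most lowered on low attachment alone, TPM1 stood at place 173, CNN2 at 238, VCL at 274, ZYX at 437, CALD1 at 491 and LPXN at 537. With FP001 the places were 275, 319, 906, 550, 892 and 428 in the same gene order. The median gene differed by 0.02 with FP001 and 0.01 without it on the log2 scale. Both comparisons use the same 2 attachment arrays.

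On low-attachment plates, the arrays with FP001 and those in normal medium read at similar levels for the 6 genes, within the intervals given here. The log2 difference of FP001 over normal medium was 0.17 ± 0.09 for VCL (95% interval −0.03 to 0.36), the one furthest above 0, and −0.17 ± 0.14 for LPXN (−0.48 to 0.13), the one furthest below. For TPM1 it was −0.02 ± 0.12 (−0.28 to 0.24) and for CALD1 0.03 ± 0.09 (−0.17 to 0.23). CNN2 gave −0.07 ± 0.08 (−0.24 to 0.10) and ZYX −0.06 ± 0.12 (−0.32 to 0.20). The groups overlapped for each of the 6 genes, where 9.01% of all genes were lower and 8.48% higher without overlap. The fit called 0 of 6 at an adjusted p under 0.05 (limma), where 0.11% of all genes were called (0.0733% lower and 0.0366% higher). At an unadjusted p under 0.05 it was also 0 of 6, where 1265 of the 10916 genes tested passed. Leaving out low-attachment replicate 2 in normal medium brought 1 gene, VCL, to an unadjusted p under 0.05, where 1037 of all genes passed.

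Same-numbered arrays of both low-attachment groups deviated together across genes, replicate 1 most of all (correlation 0.483), so the differences can also be read within a replicate number. VCL was higher with FP001 in 3 of 3 numbers, by 0.13, 0.08 and 0.29 on the log2 scale. ZYX was lower with FP001 in 3 of 3, by −0.09, −0.01 and −0.08, as was CNN2 by −0.02, −0.04 and −0.14 and LPXN by −0.12, −0.04 and −0.37. TPM1 differed in sign between numbers (−0.17, −0.02 and 0.12). With the replicate number as a block, the fit called 142 genes in all, against 12 without it, and still 0 of the 6. At an unadjusted p under 0.05 (limma) it was 0 of the 6 as well, where 1726 of all genes passed. The intervals above come from the fit without the block. With it the SE was 0.09 for TPM1, 0.06 for CNN2, 0.08 for VCL, 0.09 for CALD1, 0.08 for ZYX and 0.12 for LPXN.

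**Figure D2:**
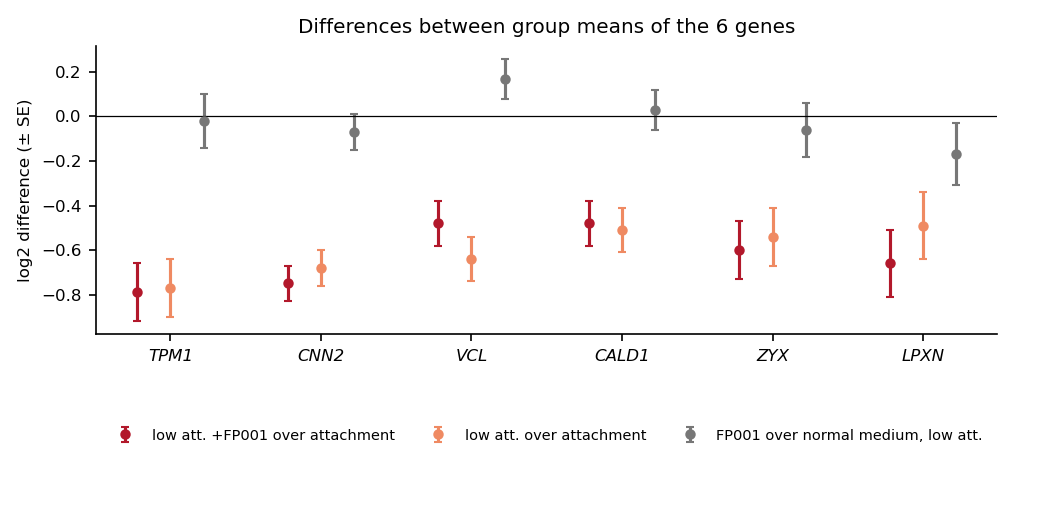
Log2 difference between group means (vertical axis, ± SE from limma) for each of the 6 genes (horizontal axis). Red points are low attachment with FP001 over attachment, orange points low attachment over attachment and grey points FP001 over normal medium on low-attachment plates. Red and orange points lie between −0.79 and −0.48, and grey points between −0.17 and 0.17.

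TPM1 and CNN2 each had a second probe set, which did not stand for the gene in the fit. That of CNN2 read 51.7, 62.9 and 55.6 with FP001 and 46.2, 55.7 and 57.8 on low attachment alone, against 70.8 and 76.1 on attachment. It was again lower without overlap, by smaller amounts: the log2 difference was −0.38 with FP001 and −0.47 without it, against −0.75 and −0.68 for the brighter probe set. The second TPM1 probe set was below the array median on each of the 8 arrays, at 16.1, 13.6 and 16 with FP001 and 14.3, 11.9 and 13.7 on low attachment alone, against 21.3 and 17.6 on attachment. Its log2 difference was −0.35 with FP001 and −0.55 without it. The sources used here do not say which part of the gene each probe set reads.

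The promoters of these genes were searched because SRF, TEAD and AP-1 factors are known to act on genes of this kind. RefSeq start sites (GRCh38.p14) gave 10 windows for the 6 genes, from 250 bases before to 50 bases after each start, with 4 windows for CALD1 and 2 for LPXN. Both strands were searched for the CArG box, for the AP-1 site TGANTCA, for the TEAD site GGAATG and for the GC box GGGCGG and matches that share bases were each counted. The 3 windows below are shown for the single CArG box found, for a TEAD-type match and for an AP-1-type match, and capitals mark that match.
CNN2, chr19:1026358-1026657, + strand: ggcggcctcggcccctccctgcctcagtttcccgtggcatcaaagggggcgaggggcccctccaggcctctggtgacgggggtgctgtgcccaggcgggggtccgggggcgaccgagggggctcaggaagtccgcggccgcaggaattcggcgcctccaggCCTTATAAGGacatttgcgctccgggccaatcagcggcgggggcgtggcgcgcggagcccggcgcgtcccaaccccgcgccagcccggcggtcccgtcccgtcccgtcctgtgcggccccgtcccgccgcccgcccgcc
VCL, chr10:73997866-73998165, + strand: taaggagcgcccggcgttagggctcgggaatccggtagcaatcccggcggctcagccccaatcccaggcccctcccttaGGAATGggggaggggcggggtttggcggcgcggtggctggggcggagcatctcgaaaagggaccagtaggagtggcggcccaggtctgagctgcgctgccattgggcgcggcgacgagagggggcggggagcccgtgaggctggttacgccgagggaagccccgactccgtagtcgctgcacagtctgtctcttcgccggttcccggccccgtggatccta
LPXN, first window, chr11:58578084-58578383, − strand: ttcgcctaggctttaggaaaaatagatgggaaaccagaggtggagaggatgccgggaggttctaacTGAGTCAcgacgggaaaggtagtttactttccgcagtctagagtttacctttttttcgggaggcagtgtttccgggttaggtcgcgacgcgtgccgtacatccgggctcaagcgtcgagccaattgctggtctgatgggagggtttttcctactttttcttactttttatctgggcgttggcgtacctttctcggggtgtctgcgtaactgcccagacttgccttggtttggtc

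The CNN2 window held CCTTATAAGG, which begins 89 bases before the start, and it was the only one of the 10 windows with a CArG box. Among all 35116 RefSeq promoter windows of this length, 1.29% held a CArG box. The VCL window held GGAATG from 171 bases before the start, and 2 of the 4 CALD1 windows also held that sequence or its complement, as did 14% of all windows. TGANTCA was present in the first LPXN window, 184 bases before the start, and in the first CALD1 window, 126 bases before the start, as in 7.71% of all windows. GGGCGG was found 5 times in the ZYX window, 3 times in that of VCL 2 times each in those of TPM1 and CNN2, where the 2 matches share bases, and 1 time in 1 window of CALD1, and 45% of all windows held it. A match describes the letters of the window and is not a measured binding site, and windows without a match say nothing of sites elsewhere in the gene.

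Other genes of the system were taken from 8 lists by role, made with earlier results of these data known. Without the 6 genes above, the lists held 142 genes, of which 83 were tested. With FP001, 18 of the 83 fell and 9 rose against attachment (21.7% and 10.8%, where 11.4% of all genes fell and 8.08% rose), with a median log2 difference of −0.12 beside 0.02 over all genes. On low attachment alone, 13 fell and 3 rose (15.7% and 3.61%, beside 5.76% and 4.31% of all genes), with a median of −0.11 beside 0.01. Over all genes, the balance of calls rests on the scaling, since quantile normalization raised the share of higher calls to 56.2% with FP001 and 54.4% without it, against 41.5% and 42.8%. Among the 83 genes it gave 16 falls and 12 rises with FP001 and 10 falls and 3 rises without it. No actin isoform gene (ACTB, ACTG1 or the muscle actins) was tested, and of the non-muscle myosin II list only MYLK, a kinase that activates myosin, was.

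Of 3 tested relatives of TPM1 and CNN2, 1 fell and 1 rose with FP001, and none was called on low attachment alone (limma). TPM2 read 107.4, 98.4 and 99.7 with FP001 and 109.5, 101.8 and 109.8 on low attachment alone, against 120.8 and 137.6 on attachment. It fell with FP001 (log2 difference −0.34 ± 0.10, adjusted p = 0.0349, limma) and was not called on low attachment alone (−0.27 ± 0.10, adjusted p = 0.110). For TPM4 the values were 887.2, 796.1 and 781.4 with FP001 and 680.5, 689.5 and 728.7 on low attachment alone, against 818.5 and 857.2 on attachment. TPM4 with FP001 overlapped attachment (−0.03 ± 0.08, adjusted p = 0.822, and 0.02 under quantile normalization), while without FP001 all its arrays were lower and the call was missed (−0.26 ± 0.08, adjusted p = 0.0720). TAGLN2, a calponin-related filament protein, rose with FP001 (0.35 ± 0.11, adjusted p = 0.0492) and gave 0.06 ± 0.11 without it (adjusted p = 0.769). TAGLN was below the array median on all 8 arrays and TAGLN3 on 7 of them. The calls of TPM2 and TAGLN2 were each lost without attachment replicate 2 or 3 and without FP001 replicate 2 or 3, among others.

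Among 19 tested genes of the focal adhesion scaffold other than VCL, 5 fell and 0 rose with FP001, and 3 fell and 0 rose on low attachment alone. The tensins TNS4 and TNS3, of a family that ties integrins to actin, gave the largest falls of the list in both comparisons. TNS4 read 136.6, 163.8 and 173.7 with FP001 and 153.9, 184.9 and 198.0 on low attachment alone, against 622.2 and 502.6 on attachment. That is 3.56-fold lower with FP001 (log2 difference −1.83 ± 0.14, adjusted p = 8.3e-05, limma) and 3.14-fold lower without it (−1.65 ± 0.14, adjusted p = 0.000204). TNS3 read 281.9, 319.9 and 338.9 with FP001 and 364.8, 377.8 and 337.3 on low attachment alone, against 738.3 and 610.6 on attachment (2.15-fold lower, adjusted p = 0.000276, and 1.87-fold lower, adjusted p = 0.00129). TNS1, at 19.0 to 20.9 with FP001 against 29.0 and 29.4 on attachment, was called lower with FP001 (−0.55 ± 0.15, adjusted p = 0.0316, and 0.0624 with the replicate block). Without FP001 it was not called (−0.36 ± 0.15, adjusted p = 0.170). TNS1 lay below the array median on every FP001 array and passed the filter through 4 arrays of the other groups. Its call was lost without any 1 of 5 arrays, so little rests on it. TNS2 was not called (0.03 ± 0.11 and 0.09 ± 0.11). The talin gene TLN2 (−0.47 ± 0.12, adjusted p = 0.0203) and GIT2 also fell with FP001, and the integrin-linked adaptor RSU1 fell on low attachment alone (−0.32 ± 0.07, adjusted p = 0.0251). TLN1 and PXN, the genes of talin 1 and paxillin, were not called in either comparison. For TLN1 the log2 difference was −0.28 ± 0.12 with FP001 and −0.29 ± 0.12 without it (adjusted p = 0.119 and 0.148, limma). For PXN it was −0.17 ± 0.10 and −0.26 ± 0.10 (adjusted p = 0.246 and 0.118).

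ZYX and LPXN stood in a list of LIM-domain proteins that went both ways. Of its other 20 tested genes, 6 fell and 2 rose with FP001, and 4 fell and 1 rose on low attachment alone. AJUBA, a zyxin relative of adhesions and cell junctions, read 81.0, 68.2 and 84.0 with FP001 and 84.1, 77.9 and 87.8 on low attachment alone, against 133.5 and 133.3 on attachment. It fell by 1.72-fold with FP001 (log2 difference −0.79 ± 0.11, adjusted p = 0.00136, limma) and by 1.60-fold without it (−0.68 ± 0.11, adjusted p = 0.00467). FHL3 fell in both comparisons (−0.63 ± 0.12 and −0.46 ± 0.12), as did the zyxin relatives TRIP6 (−0.41 ± 0.09 and −0.36 ± 0.09) and LIMD1. CSRP2 (−0.63 ± 0.16, adjusted p = 0.0215) and TGFB1I1, a paxillin relative (−0.54 ± 0.11, adjusted p = 0.00914), fell with FP001. CSRP2 was lost without attachment replicate 2, which moved its log2 difference to −0.36.

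Some LIM-domain genes rose. TES, which binds zyxin, read 203.6, 192.9 and 197.9 with FP001 and 208.9, 216.3 and 212.3 on low attachment alone, against 174.2 and 159.9 on attachment. It rose on low attachment alone (log2 difference 0.35 ± 0.08, adjusted p = 0.0269) and missed the threshold with FP001 (0.25 ± 0.08, adjusted p = 0.0640), which it passed under quantile normalization (0.34, adjusted p = 0.0172). LASP1, a LIM and SH3 protein of filament ends, read 1515.0, 1407.2 and 1380.9 with FP001 and 1311.2, 1115.3 and 1118.1 on low attachment alone, against 1014.8 and 1018.0 on attachment. It rose with FP001 against attachment (0.50 ± 0.09, adjusted p = 0.00445), as did CSRP1. Against normal medium on low attachment, LASP1 was not called (0.28 ± 0.08, adjusted p = 0.222) unless the replicate number was a block (adjusted p = 0.0399).

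**Figure D3:**
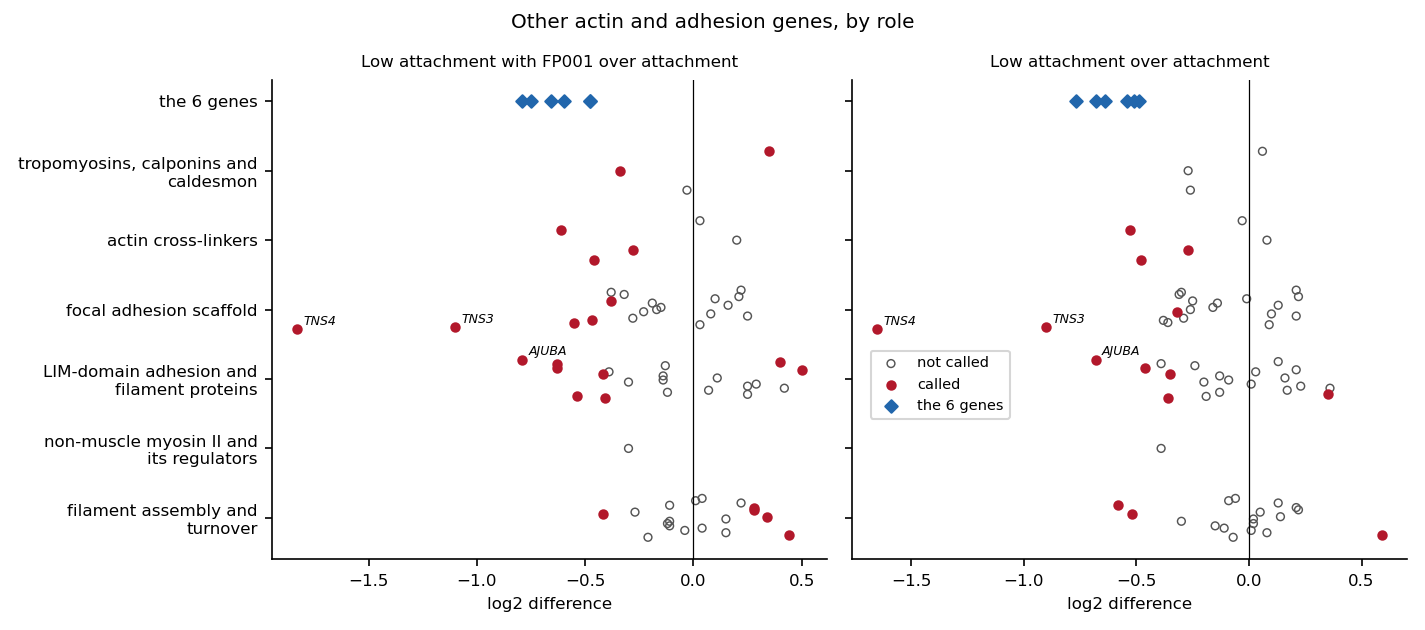
Log2 difference from attachment (horizontal axis) of each tested gene of 6 role lists (vertical axis), for low attachment with FP001 (left) and low attachment alone (right). Filled red points passed an adjusted p under 0.05 in limma, open points did not, and blue diamonds are the 6 genes, shown without a test. TNS4 and TNS3 lie further left than the 6 genes in both panels, and the assembly list has points on both sides of 0.

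Of 5 tested actin cross-linkers, 3 fell with FP001 and the same 3 without it. They were MACF1, which joins actin to microtubules (log2 difference −0.61 ± 0.14 and −0.53 ± 0.14), SYNPO (−0.46 ± 0.12 and −0.48 ± 0.12) and the plastin PLS3 (−0.28 ± 0.07 and −0.27 ± 0.07). Without FP001, the calls of MACF1 and PLS3 ended under quantile normalization (adjusted p = 0.0554 and 0.0794) and in limma without a trend (0.0521 and 0.0740). Of 18 genes of filament assembly and turnover, 1 fell and 4 rose with FP001, and 2 fell and 1 rose without it. The formin DIAPH3 fell in both (−0.42 ± 0.13 and −0.52 ± 0.13), and the microvillus protein VIL1 rose in both (0.44 ± 0.14 and 0.59 ± 0.14). The depolymerising factor DSTN (0.34 ± 0.10), cortactin (CTTN, 0.28 ± 0.09) and DIAPH1 rose with FP001.

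COTL1, an actin-binding protein of the cofilin superfamily, was called in 1 of the comparisons with attachment. It read 541.8, 510.5 and 505.2 with FP001 and 344.3, 396.3 and 385.5 on low attachment alone, against 545.9 and 574.9 on attachment. It fell 1.5-fold on low attachment alone (log2 difference −0.58 ± 0.09, adjusted p = 0.00337, limma) and was not called with FP001 against attachment (−0.11 ± 0.09, adjusted p = 0.393). The difference of FP001 over normal medium was 0.47 ± 0.08 and missed the threshold (adjusted p = 0.0621), and with the replicate number as a block it passed (adjusted p = 0.0140). No pathway gene was called for FP001 over normal medium without the block (0 of 83, limma). At an unadjusted p under 0.05, 13 of the 83 passed, beside 1265 of all 10916 genes. With the block 2 rose, COTL1 and LASP1, beside 142 genes called in all. The fall of COTL1 on low attachment alone and its difference for FP001 over normal medium share the 3 normal-medium arrays of low attachment.

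Transcription regulators that act on genes of this system were read beside them. MRTFA, the actin-sensing cofactor of SRF, read 127.7, 150.6 and 139.3 with FP001 and 166.8, 165.3 and 162.8 on low attachment alone, against 255.9 and 246.2 on attachment. It fell 1.81-fold with FP001 (log2 difference −0.85 ± 0.09, adjusted p = 0.000426, limma) and 1.52-fold without it (−0.61 ± 0.09, adjusted p = 0.00373). SRF itself read 183.4 to 209.8 with FP001 and 174.8 to 187.7 without it, against 194.9 and 204.9 on attachment, and was not called (adjusted p = 0.844 and 0.413). MRTFB was not called either (−0.34 ± 0.13, adjusted p = 0.0846 with FP001, and −0.15 ± 0.13, adjusted p = 0.492 without it). The same held for YAP1 (adjusted p = 0.459 and 0.626) and WWTR1 (0.960 and 0.779). TEAD2, a DNA-binding partner of YAP1, fell with FP001 (−0.62 ± 0.11, adjusted p = 0.00496) and was not called without it (−0.36 ± 0.11, adjusted p = 0.0719). Its relatives TEAD1, TEAD3 and TEAD4 were not called in either comparison (−0.19, 0.05 and −0.17 with FP001, and −0.24, −0.02 and −0.27 without it).

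**Figure D4:**
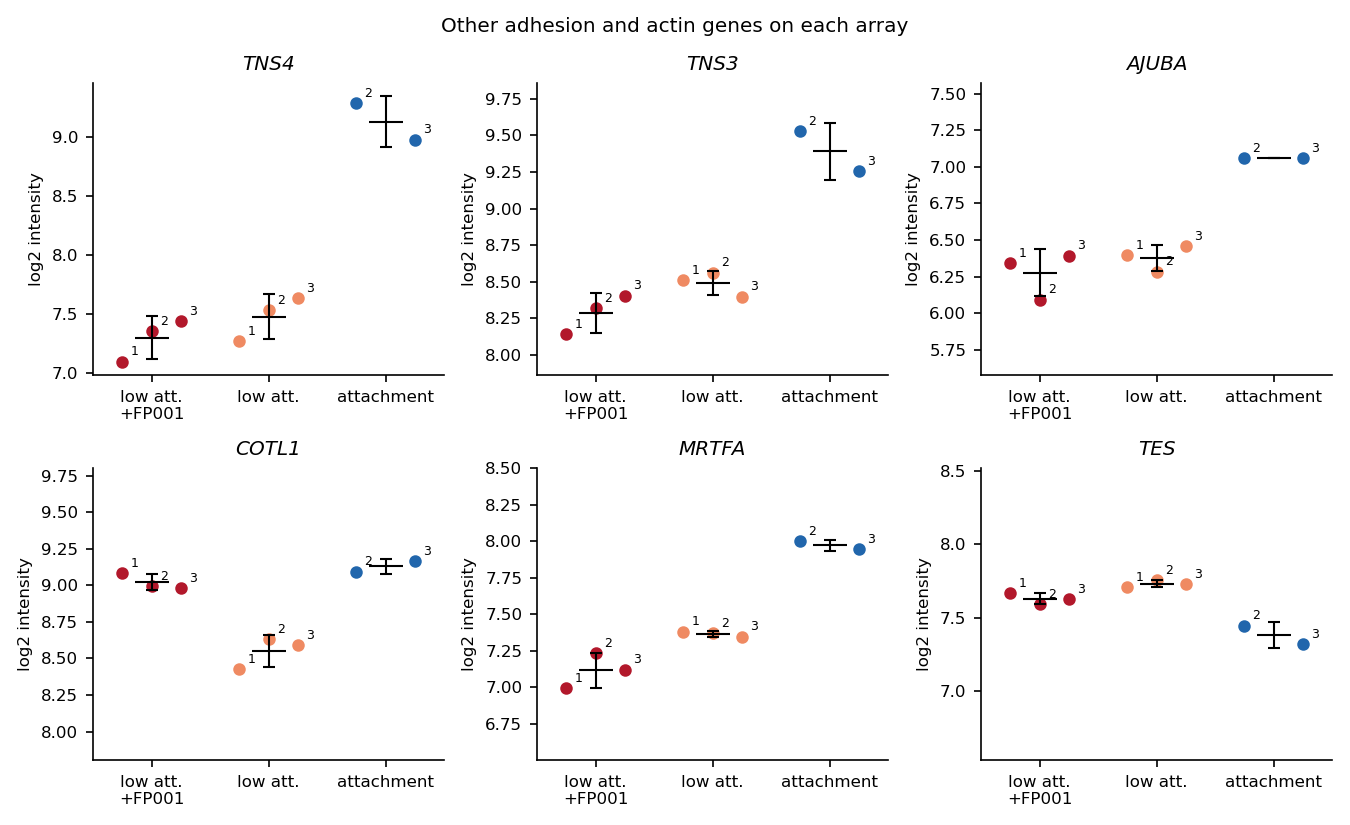
Log2 intensity (vertical axis) on each array of 6 further genes, by condition (horizontal axis), drawn as points with replicate numbers, group means and ± 1 SD (n = 3, 3 and 2). TNS4, TNS3, AJUBA and MRTFA are low on all 6 low-attachment arrays, COTL1 is low without FP001 (344.3 to 396.3), and TES is higher than on attachment in both low-attachment groups. The vertical axes do not start at 0 and their ranges differ for TNS4.

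Most calls of single pathway genes against attachment rested on having both attachment arrays. On low attachment alone, TNS4, TNS3, AJUBA, COTL1 and MRTFA passed without any 1 of the 8 arrays, and the other 11 of 16 were lost without attachment replicate 2 and also without replicate 3. With FP001, 6 of 27 passed without any 1 array, TNS4, TNS3, AJUBA, MRTFA and LASP1 among them, 8 of 27 were called without attachment replicate 2, and 13 without replicate 3. Quantile normalization also ended the calls of TRIP6 on low attachment alone (adjusted p = 0.0663) and of DIAPH3 and TPM2 with FP001 (0.0735 and 0.0987). With the replicate block in limma, TPM4 on low attachment alone (adjusted p = 0.0404) and MRTFB and RSU1 with FP001 (0.0496 and 0.0498) passed. TAGLN2 and VIL1 with FP001 did not (0.0505 and 0.0556). That block also ties attachment arrays to low-attachment arrays of the same number, a pairing that their deviations did not show. In limma without a trend, RSU1 on low attachment alone and CTTN, DIAPH1, TAGLN2 and VIL1 with FP001 were lost (adjusted p from 0.0505 to 0.0663), as were CTTN, TAGLN2 and VIL1 with no filter (0.0512 to 0.0603) and VIL1 with a pseudocount of 16 (0.0514).

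The defining markers were checked beside these values. The 9 named epithelial and lung markers had summed intensities of 5243 to 5839 with FP001 and 4538 to 4879 on low attachment alone, against 4310 to 4471 on attachment. Most of that was the brighter KRT18 probe set. It read 4288.0 to 4578.7 with FP001 and 3640.1 to 3770.5 on low attachment alone, against 3477.9 and 3705.1 on attachment. It rose with FP001 (log2 difference 0.30 ± 0.06, adjusted p = 0.00917, limma) and was not called without it (0.05 ± 0.06). The other KRT18 probe set read 264.6 to 300.1 and did not show this rise (0.04 with FP001 and 0.01 without it). KRT19 rose in both comparisons (log2 difference 1.55 and 1.03, adjusted p = 0.00135 and 0.0158). In the same list EPCAM fell with FP001 (−0.53 ± 0.16, adjusted p = 0.0420) and KRT7 fell on low attachment alone (−0.54 ± 0.15, adjusted p = 0.0422). The lung markers of the list read low beside array medians of 23.3 to 24.1, and none of them was called. NKX2-1 read 21.0 to 27.3, SFTPC 31.8 to 43.8, SFTPB 27.5 to 41.6 and NAPSA 21.5 to 52.0. The sum therefore says little of them. Of 13 markers of smooth muscle and fibroblasts, 6 were named and none was listed at 0. DCN and TAGLN were below the array median on all 8 arrays. The summed intensity of this list ranged from 274 to 639 with FP001 and from 229 to 472 without it, against 292 to 326 on attachment. LUM carried the high sums, at 436.5, 79.0 and 103.4 with FP001 and 246.6, 24 and 41.5 on low attachment alone, against 93.3 and 28.2 on attachment, so that replicate 1 stood apart in both low-attachment groups. THY1 fell in both comparisons (log2 difference −0.51 ± 0.11 and −0.45 ± 0.11, adjusted p = 0.0115 and 0.0290). Of 12 leukocyte markers 4 were named, with sums of 613 to 832 with FP001 and 551 to 705 without it, against 456 and 535 on attachment. CD68, a lysosomal protein, was the leukocyte marker that rose with FP001 (0.74 ± 0.17, adjusted p = 0.0146). The part of these markers in the values of the 6 genes was not tested. In RNA from whole cultures, fewer cells of a kind and less RNA per cell cannot be told apart.

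Over the 8 arrays the log2 intensities of the 6 genes correlated with each other at 0.615 (VCL and LPXN) to 0.972 (CNN2 and CALD1), a description in which the points share arrays and the difference between plates. The genes most like each of them by Pearson correlation over the same 8 arrays were FZD8, TRAM1 and DNASE1 for TPM1 (0.985 to 0.982), and INTS8, AMIGO2 and XRCC1 for CNN2 (0.995 to 0.991). GALNT14, C3orf52 and MYBL1 followed VCL (0.985 to 0.969), and FGF2, AKAP8L and DDX23 followed CALD1 (0.995 to 0.990). For ZYX they were ZNF614, HSPA2 and EDRF1 (0.991 to 0.987), and for LPXN they were IL4R, KAT8 and CCDC146 (0.995 to 0.973).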

How the data were processed

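The deposited table holds array intensities on a linear scale for 53617 probe sets and 9 arrays, which the authors computed by MAS5 (per the submitters' processing notes, which name no settings). GEO's platform annotation, updated through RefSeq gene identifiers, gave 16098 probe sets a single symbol, all matched, and left 37519 unnamed here.

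Log2 of the intensity was used with no pseudocount or further scaling. Probe sets at or above the array median on at least 3 of 8 arrays were kept (all 6 genes were so on all 8), and the brightest stood for each of 10916 genes. One limma 3.58.1 model (R 4.3.3, lmFit, eBayes with trend) took the 3 groups without a block, two-sided, with Benjamini-Hochberg adjustment over all genes. It was run on simulated data with independent arrays, which does not check it where same-numbered arrays deviate together. Mean intensity changes are differences of mean log2 values.

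The genes and role lists were chosen with earlier results of these data known. Named beside them were relatives, regulators, and up to 4 called genes per list and comparison with the largest change. LIMD1, GIT2, CSRP1, DIAPH1, LASP1, TNS2, TEAD1, TEAD3, TEAD4 and LUM were named after their values were seen. TLN1, PXN and single cell-type markers were also named outside these rules. Deviations from group means of same-numbered arrays correlated at 0.483, 0.309 and 0.231 between the low-attachment groups. Differently numbered arrays of these groups correlated at −0.353 to 0.133, with 0.133 and 0.0905 between numbers 2 and 3. Replicate numbers were taken to pair the low-attachment groups. Same-numbered attachment arrays correlated with them at −0.256 to 0.138 and were not taken as paired. The replicate block, an alternative, still tied the attachment arrays by number. Alternatives changed the scaling, filter, pseudocount, probe-set choice, block, variance trend and arrays. The results of 1 role list and some of its genes are not reported here.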

Additional observations from a re-analysis of the deposited data

How the results depend on the processing

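Small numbers of arrays, above all 2 on attachment plates, limit every value. Under quantile normalization and with the replicate block, each of the 6 genes stayed lower than attachment in both comparisons. Either other filter and limma without a trend leave these differences as they are. Neither a pseudocount of 16 nor averaged probe sets could turn a sign, because no low-attachment array reached an attachment array on these probe sets. For CNN2, averaging its probe sets gave log2 differences of −0.56 with FP001 and −0.57 without it. The same lack of overlap means that leaving out 1 of the 8 arrays at a time could not turn a sign. The 12 differences then ranged from −0.92 to −0.23, and both ends belong to LPXN. Other genes kept their sign wherever they were called, except with all 9 arrays.

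With the replicate block, FP001 over normal medium gave 142 genes and 2 pathway genes that rose, against 12 and 0 without it. This block covers all 8 arrays, so it ties attachment arrays to same-numbered arrays as well as pairing the 2 low-attachment groups. The block changed no call count of the comparisons with attachment by over 1.5 times. Limma without a trend gave 0 genes for FP001 over normal medium (1226 at an unadjusted p under 0.05) and 5 pathway genes that rose with FP001 over attachment.

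Without 1 array, genes called ranged from 362 to 1301 for low attachment over attachment, from 660 to 2305 with FP001 over attachment, and from 0 to 11 for FP001 over normal medium. Pathway genes that fell ranged from 5 to 14 and from 6 to 19 in the first and second of these, and those that rose from 0 to 3 and from 2 to 9.

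With all 9 arrays, limma called 0 genes in each of the 3 comparisons (198, 330 and 11 at an unadjusted p under 0.05) and 0 pathway genes, and many signs turned once attachment replicate 1, which follows no other array, was included. For low attachment over attachment the log2 differences became 1.29 for CNN2, 2.34 for VCL, 0.33 for CALD1, 0.60 for ZYX, 0.28 for LPXN, 1.01 for AJUBA, 1.41 for COTL1, 0.58 for DIAPH3, 0.96 for FHL3, 1.81 for LIMD1, 0.94 for MACF1, 1.14 for PLS3, 2.20 for RSU1, 1.49 for SYNPO and 0.09 for TNS3. For FP001 over attachment they became 1.22 for CNN2, 2.51 for VCL, 0.36 for CALD1, 0.54 for ZYX, 0.11 for LPXN, 0.91 for AJUBA, 0.68 for DIAPH3, 0.79 for FHL3, 1.74 for LIMD1, 0.86 for MACF1, 1.13 for PLS3, 1.51 for SYNPO, 1.03 for TEAD2, 1.66 for TGFB1I1, 0.63 for TLN2, 0.03 for TNS1, 1.10 for TPM2 and −0.10 for VIL1.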

Other observations

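On the array left out, attachment replicate 1, the probe sets that stand for the genes read 32.9 for TPM1, 14.3 for CNN2, 2.3 for VCL, 16.3 for CALD1, 17.0 for ZYX and 14.3 for LPXN. The second probe sets read 4.0 for TPM1 and 3.7 for CNN2. Of these 8 values, all lay below those of attachment replicates 2 and 3. That array had a median intensity of 15.8 and followed no other array, so its values say nothing of these genes.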
